A study of Caenorhabditis elegans with 2 samples.

Results

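The peaks described here are the intergenic REC-8::GFP peaks of Caenorhabditis elegans that lay away from gene starts. They were taken from the relaxed list that the authors called on both replicates together, on chromosomes I to IV. A peak was included when its summit, the position of its highest point, lay inside no protein-coding gene and more than 500 bp from every protein-coding transcript start and every gene for a tRNA, snoRNA, snRNA, rRNA or miRNA. The rule kept 2511 of the 12854 peaks on these 4 chromosomes (19.5%), out of 18953 peaks in the whole list. The signal and the replicate match of the peaks were not used to choose them.

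REC-8 was profiled by ChIP-seq, in which DNA bound by the tagged protein is precipitated and sequenced, in 1 group of 2 biological replicates. The animals were young adult hermaphrodites of strain YL563, collected 48 hours after synchronization as starved L1 larvae, and they stably carried REC-8 with GFP and FLAG tags at its C-terminus. The description of the samples names an antibody against GFP, while another label gives the antibody as rec-8. Chromatin came from whole worms and was sheared by sonication, so every cell of the animal contributed DNA, and only 1 tagged line was profiled. No control library and no second condition was analysed here, so the questions addressed are where these peaks lay, how high they were and how often the replicates shared them.

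REC-8 is a meiotic kleisin, a subunit that closes the cohesin ring around sister chromatids, and in worms it acts in the germ line. Cohesin holds sister chromatids together and organizes chromosomes into loops along the meiotic axis. In budding yeast, cohesin is known to accumulate between convergent genes, that is, where the neighbouring genes on both sides are transcribed towards each other. Distances to 3′ ends and the orientation of neighbouring genes are therefore described here in some detail.

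The sequences of 7 summits are shown because they are among those of highest signal in these peaks on chromosomes II, III and IV. Each is the 200 bp around a summit, on the + strand of WBcel235 (the same assembly as ce11), from RefSeq. The highest lay at chrIII:8043860-8044059, between the divergent genes K12H4.6 and K12H4.5, and the next at chrII:14496959-14497158, between cysl-2 and dhs-8 and at the non-coding RNA genes K10H10.11 and K10H10.14. Overlapping peaks between eel-1 and ivph-3 gave the windows chrIV:3050520-3050719 and chrIV:3050725-3050924. Capitals mark the words searched for in either orientation, which were GGTTCGA and the looser GTTCNANNC of the B box, the GA repeat GAGAGA, the GC box CCGCCC, the polyadenylation signal AATAAA, the CA repeat CACACA, a run of T written as TTTTTTTT, the telomere unit TTAGGC, and a pair of repeat words, AAAAGGGG and the other one, GTGGGAAG.
K12H4.6/K12H4.5: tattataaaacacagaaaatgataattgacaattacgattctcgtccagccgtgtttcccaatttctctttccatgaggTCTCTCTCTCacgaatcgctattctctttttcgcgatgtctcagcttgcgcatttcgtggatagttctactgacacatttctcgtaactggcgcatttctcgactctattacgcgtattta
cysl-2/dhs-8: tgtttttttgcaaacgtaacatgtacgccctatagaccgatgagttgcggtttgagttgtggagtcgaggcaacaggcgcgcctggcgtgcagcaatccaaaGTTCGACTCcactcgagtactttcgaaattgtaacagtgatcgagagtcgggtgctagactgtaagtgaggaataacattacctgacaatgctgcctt
eel-1/ivph-3, left: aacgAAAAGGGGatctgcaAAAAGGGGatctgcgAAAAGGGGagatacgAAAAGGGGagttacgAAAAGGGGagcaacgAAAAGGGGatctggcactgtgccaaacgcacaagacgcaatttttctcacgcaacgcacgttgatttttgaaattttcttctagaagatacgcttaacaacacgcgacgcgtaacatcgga
eel-1/ivph-3, right: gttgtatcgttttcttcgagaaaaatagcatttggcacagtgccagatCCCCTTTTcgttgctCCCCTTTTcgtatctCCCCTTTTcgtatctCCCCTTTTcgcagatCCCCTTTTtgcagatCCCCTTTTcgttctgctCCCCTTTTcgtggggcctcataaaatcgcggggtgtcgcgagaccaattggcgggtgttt
The windows of the eel-1 and ivph-3 gap held the word AAAAGGGG 6 times on the + strand in the left window and 7 times on the other strand in the right one, so the same repeat runs in opposite directions at the overlapping peaks. Of their 31-letter words, 25.3% and 22.4% occurred once in the genome, against 100% at both K12H4.6/K12H4.5 and cysl-2/dhs-8.

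The other 3 windows stood in other settings. The window chrII:5353758-5353957 lay 149 bp past the 3′ end of F09E5.7, and chrIV:8375491-8375690 lay between the convergent genes aagr-1 and D2096.7. The last, chrIII:931507-931706, lay between pef-1 and fbxa-55.
F09E5.7/srg-69: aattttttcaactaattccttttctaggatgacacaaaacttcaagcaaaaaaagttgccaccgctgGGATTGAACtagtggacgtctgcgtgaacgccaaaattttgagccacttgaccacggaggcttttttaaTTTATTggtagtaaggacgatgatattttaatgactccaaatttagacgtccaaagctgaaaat
aagr-1/D2096.7: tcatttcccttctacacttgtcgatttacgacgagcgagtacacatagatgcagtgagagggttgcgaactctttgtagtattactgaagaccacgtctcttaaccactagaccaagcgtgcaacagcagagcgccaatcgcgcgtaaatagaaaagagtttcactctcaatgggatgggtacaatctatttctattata
pef-1/fbxa-55: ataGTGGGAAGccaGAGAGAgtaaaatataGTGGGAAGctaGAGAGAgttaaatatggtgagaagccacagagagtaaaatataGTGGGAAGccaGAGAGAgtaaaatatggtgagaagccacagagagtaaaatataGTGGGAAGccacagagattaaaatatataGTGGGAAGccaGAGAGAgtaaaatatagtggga
The window at pef-1 was a tandem repeat with 5 copies of GTGGGAAG. Matches to GTTCNANNC, the consensus of the B box of RNA polymerase III promoters, stood in the cysl-2/dhs-8 window and, on the other strand, in the F09E5.7 window. This consensus, AAAAGGGG and GTGGGAAG were added to the search after the sequences had been read.

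The bases that could hold such a summit set the scale for all shares below. Of the 61.6 Mb of chromosomes I to IV, 16.6 Mb (26.9%) met the rule of position, and these are called eligible bases. The 2511 peaks came to 151.4 per Mb of eligible bases, against 229.6 per Mb for the other peaks on the remaining sequence. They were called in intergenic gaps of 5049 bp at the median (quartiles 2388 and 9437). Of the 6570 gaps with an eligible base, 1723 held a peak, 1221 of them a single one, and 23 held 5 or more. The most in 1 gap was 10, in the 15313 bp between F54F12.1 and Y39E4B.6 on chromosome III. All but 2 of the peaks were 430 bp wide, 375 overlapped another peak of the set, and 571 (22.7%) had the summit of another within 1000 bp, so neighbouring peaks are not independent sites. The depth of the libraries is unknown, since the files hold no read counts. The intervals given below are exact 95% binomial (Clopper-Pearson) intervals, and they cover the counting of peaks only.

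The intergenic peaks were close in height to the rest of the list. Signal, the authors' own value for the height of a peak, had a median of 30.3 (quartiles 26.4 and 36.4) in the 2511 peaks, against 31.5 (quartiles 26.9 and 39.3) in the other peaks of chromosomes I to IV. Their lowest signal was 23.6 and their highest 225.8. Of the 2511 peaks, 46.0% exceeded the median of the whole list. Peaks in exons away from starts had a median of 31.0, peaks in introns 29.7, peaks within 500 bp of a protein-coding start 32.7 and peaks within 500 bp of a small RNA gene 51.3. The order thus ran from introns through the intergenic peaks and exons to starts, and the small RNA genes stood far above. At the boundary of the rule, 67 peaks with a start 501 to 550 bp away had a median of 33.4 and a density of 198.9 per Mb, while 80 peaks outside genes and just under the limit, 451 to 500 bp from a start, had a median of 30.5 and a density of 230 per Mb.

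**Figure D1:**
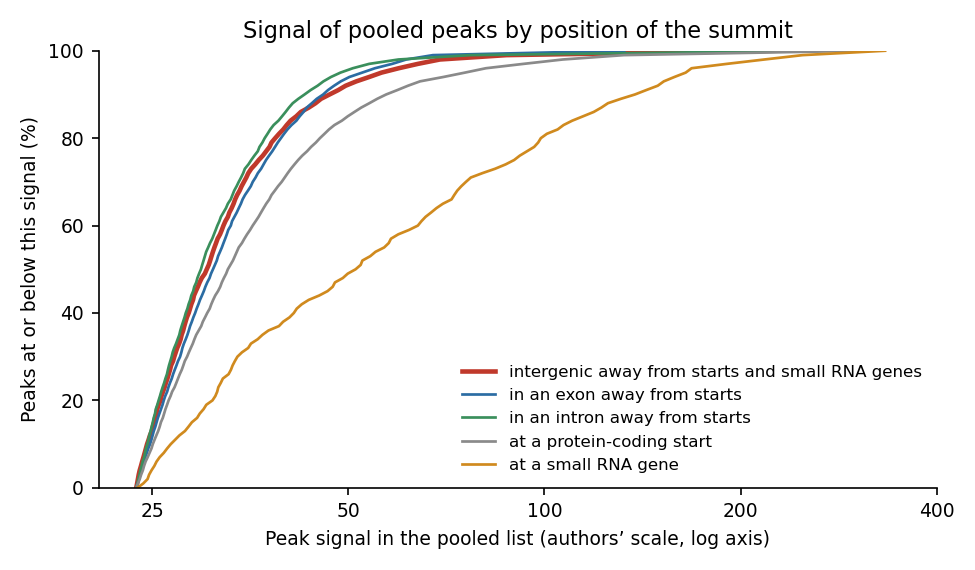
Cumulative share of pooled peaks on chromosomes I to IV (percent, vertical axis) against peak signal (authors' scale, log axis), by position of the summit. The curve of the 2511 intergenic peaks, with its median at 30.3, runs between those of introns and exons for most of its length, and the curve of small RNA genes, with its median at 51.3, lies far to the right.

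A minority of the intergenic peaks was found in both replicates. A summit of replicate 1 lay within 100 bp of 53.8% of them (interval 51.9 to 55.8), against 56.6% of all pooled peaks on chromosomes I to IV. For replicate 2 the share was 48.2% (46.3 to 50.2), against 50.2% of all pooled peaks. Both replicates had such a summit for 510 of the 2511 peaks (20.3%, interval 18.8 to 21.9), against 23.2% of all pooled peaks. The share in both was 12.2% when summits had to lie within 50 bp and 38.6% by overlap of peaks. At 100 bp, another 842 were matched in replicate 1 alone, 701 in replicate 2 alone and 458 (18.2%) in neither. Of the eligible bases, 3.33% lay within 100 bp of a summit of replicate 1, 3.58% within 100 bp of one of replicate 2 and 0.556% within 100 bp of both. The pooled calls contain the reads of both replicates, so a match with either is not independent of the call. The share matched in both was 20.6% for exons (interval 19.2 to 22.0), 17.5% for introns (16.1 to 19.1), 27.0% for starts (25.7 to 28.4) and 58.0% for small RNA genes (53.0 to 62.9).

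Replicate match rose with the pooled signal. That signal comes from the reads of both replicates, so the rise is partly built in. With the 2511 peaks cut into 4 classes of rising signal, in the lowest class, with signals from 23.6 to 26.4, 9 of 628 (1.43%) were matched in both replicates. The second class had 6.05%, the third 20.1% and the highest, with signals above 36.4, 53.7%. Within the highest of 4 such classes of all pooled peaks on chromosomes I to IV, 59.3% of the intergenic peaks were matched in both, against 53.9% of peaks in exons, 54.8% in introns, 62.3% at starts and 82.7% at small RNA genes. Among peaks of that height the share of the intergenic ones lay between those of introns and starts, and the differences were not tested.

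**Figure D2:**
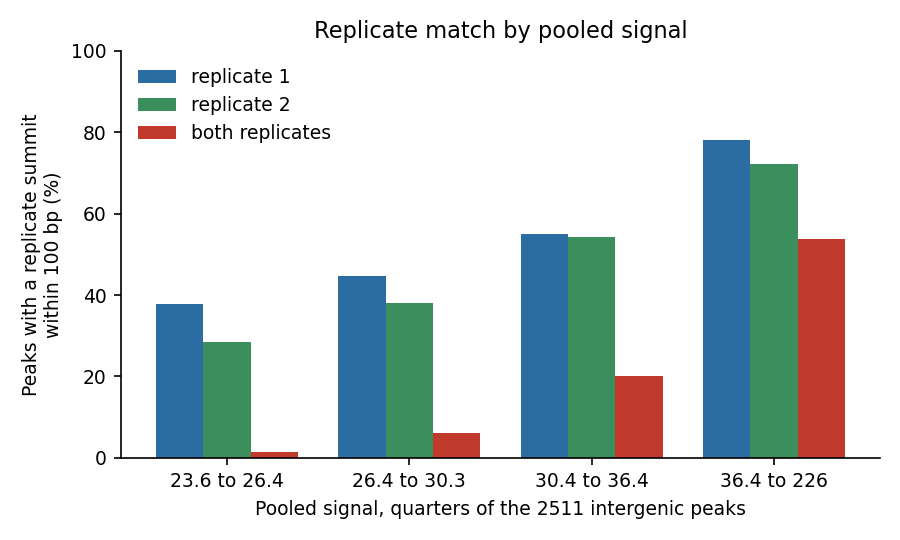
Share of the 2511 intergenic peaks with a summit of replicate 1, of replicate 2 or of both within 100 bp (percent), in 4 classes of rising pooled signal and equal size. The share matched in both replicates was 1.43% in the lowest class and 53.7% in the highest.

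The same rule applied to the list of each replicate gave 2745 intergenic peaks for replicate 1 and 2950 for replicate 2. Of those of replicate 1, 491 (17.9%) had an intergenic or other summit of replicate 2 within 100 bp, and 491 (16.6%) of those of replicate 2 had one of replicate 1. Among the 50 highest the match reached 64.0% for replicate 1 and 78.0% for replicate 2, and among the 500 highest it was 35.2% and 33.4%. These lists were called separately, so the match between them does not involve the pooled reads. For the 510 peaks matched in both, signal had a median of 21.9 in replicate 1 and 18.1 in replicate 2, with a Spearman rho of 0.375 between the replicates across peaks. The correlation describes peaks that share libraries and does not treat them as independent samples.

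**Figure D3:**
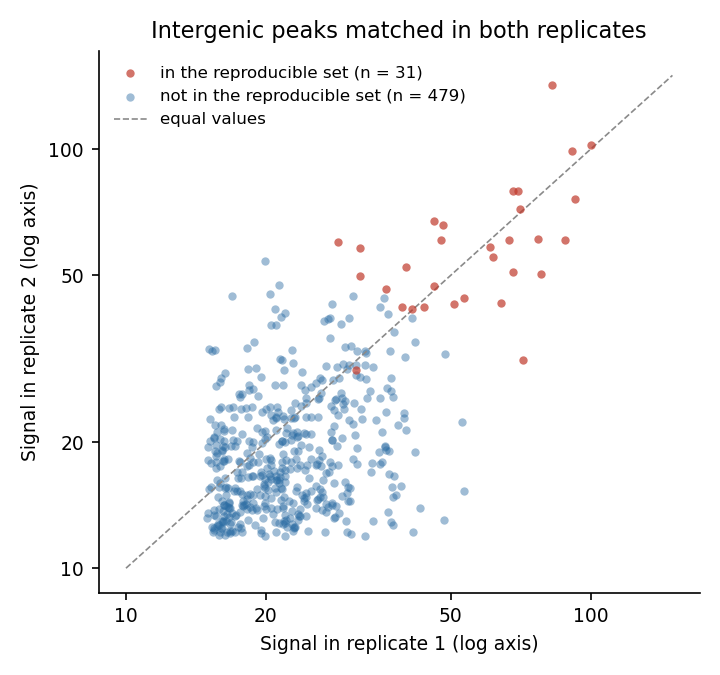
Signal of the 510 intergenic peaks matched in both replicates, in replicate 1 (horizontal) and replicate 2 (vertical), on log axes with a dashed line of equal values. The 31 peaks of the reproducible set lie to the upper right, with medians of 60.7 and 58.1, and the others lie mostly at lower signals in both replicates.

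The reproducible set, which the authors chose by the irreproducible discovery rate (IDR) between replicates, held 34 of the 2511 peaks (1.35%, interval 0.939 to 1.89). Of all pooled peaks on chromosomes I to IV it held 2.79%. It held 0.322% of the peaks in exons, 0.864% of those in introns, 4.24% of those at starts and 28.0% of those at small RNA genes. The set is close to a signal threshold on the pooled list, since 593 of its 606 peaks are among the top 606 of that list by signal, so it adds little to the ranking. The lowest of the 34 intergenic peaks in it had a signal of 80.6, and the highest intergenic peak outside it had 80.2. A summit within 100 bp was found for 32 of the 34 in replicate 1 and for 32 in replicate 2, and for 31 in both.

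The highest intergenic peaks lay in gaps of every orientation. The peak between K12H4.6 and K12H4.5 had a pooled signal of 225.8, with 82.7 in replicate 1 and 142.3 in replicate 2, and it ranked 44 in the pooled list. It stood 527 bp from the start of K12H4.5, just beyond the limit of the rule. Next came the peak between cysl-2, a cysteine synthase-like gene, and dhs-8, a short-chain dehydrogenase, with 209.7 pooled and 100.2 and 102.2 in replicates 1 and 2. The left peak between eel-1, a ubiquitin ligase, and ivph-3 had 180.6 pooled and 91.2 and 99.1 in the replicates, and its overlapping neighbour had 138.2 pooled. These divergent gaps hold no 3′ end of a flanking gene, and in the fourth peak, with 169.0 pooled and 92.4 and 75.9 in the replicates, the summit lay past the 3′ end of F09E5.7.

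Of the 34 peaks, 19 lay in tandem gaps, 12 in divergent gaps and 3 in convergent gaps. A protein-coding start lay under 1000 bp from the summit for 15 of the 34, among them the ZK757.1 peak at 515 bp and the left eel-1 peak at 516 bp. The 3 convergent ones all lay within 500 bp of a 3′ end. The highest was at aagr-1, an alpha-glucosidase homologue, and D2096.7, whose gap was 350 bp long, with 151.5 pooled and 68.1 and 79.4 in the replicates. Another lay 30 bp past the end of klp-18, a kinesin of the oocyte meiotic spindle, in the 363 bp before the end of tin-9.1, with 96.3 pooled and 53.3 and 44.0 in the replicates. The last stood in the 209 bp between mrpl-40, a mitochondrial ribosomal protein gene, and pat-4, the integrin-linked kinase, with 95 pooled and 50.9 and 42.7 in the replicates. Each of the 3 had a matching summit in both replicates.

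Of the 19 peaks in tandem gaps, 13 lay within 500 bp of a 3′ end, at 40 to 424 bp from it. Besides F09E5.7, the genes were mdh-2, H12I13.1, ZK757.1, cgh-1, rps-6, xbp-1, ZC155.4, eef-2, Y45F10B.13, xbx-5, tsr-2 and Y62F5A.9. The highest of these was the peak at mdh-2, with 121.0 pooled and 60.7 and 58.4 in replicates 1 and 2. As examples, 4 others are given with their values. The peak 341 bp past cgh-1, a DEAD-box RNA helicase of germ granules, had 111.8 pooled and 48.1 and 65.9 in replicates 1 and 2. Its summit also lay inside or within 100 bp of the non-coding RNA gene C07H6.17, and that at ZC155.4 likewise of srpr-2.1. The peak 151 bp past rps-6, a protein of the small ribosomal subunit, had 104.8 pooled and 71.7 and 31.5 in the replicates, so it was the higher one in replicate 1. The peak 40 bp past eef-2, translation elongation factor 2, had 87.4 pooled and 31.9 and 58.1 in the replicates. A further one lay 165 bp past xbp-1, a transcription factor of the unfolded protein response, with 94.9 pooled and 39.997 and 52.319 in the replicates.

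Not every peak of the reproducible set had a match in each replicate. The peak between spl-1 and rps-24, at chrIV:385067-385496 with 90.3 pooled, had no summit within 100 bp in either replicate. The peak between egrh-2 and lep-2, with 90.4 pooled, was matched in replicate 2 alone, at 55.2. One of the 2 overlapping peaks at srpr-2.1, annotated as a non-coding RNA gene, had 87.5 pooled and was matched in replicate 1 alone, at 29.3, while the other, with 94.4 pooled, had 47.6 and 60.8 in the replicates. At the srpr-2.1 peaks 53.5% and 55.3% of the 31-letter words occurred once in the genome, at the spl-1 peak 58.2% and at the egrh-2 peak 72.4%. The part of repeated sequence in these mismatches was not tested.

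Intergenic peaks were concentrated near the 3′ ends of protein-coding genes. A 3′ end lay within 500 bp of 717 of the 2511 summits (28.6%, interval 26.8 to 30.4), against 13.96% of eligible bases, a ratio of 2.05. Within 100 bp the shares were 7.73% of the peaks and 3.44% of the bases, within 250 bp 17.4% and 7.92%, and within 1000 bp 38.2% and 23.1%. A 3′ end was nearer than a start for 53.96% of the peaks and for 46.1% of eligible bases. In mostly unique sequence, where at least 50% of the 31-letter words of the window occur once, the ratio within 500 bp was 1.91.

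The density of peaks was highest next to the ends and levelled off within 1 kb. It was 332.5 per Mb of eligible bases in the first 250 bp from a 3′ end and 279.7 in the next 250 bp. From 500 to 750 bp it was 184.2, from 750 to 1000 bp 131.2, and beyond 3000 bp 119.4 per Mb. Next to the ends the peaks were also somewhat higher, with a median signal of 32.1 in the first 250 bp against 29.1 beyond 3000 bp. The share near a 3′ end was larger among higher peaks. It was 20.5% in the lowest of the 4 classes by signal (interval 17.4 to 23.9), 25% in the second, 29.3% in the third and 39.3% in the highest (35.5 to 43.3). Among the 510 peaks matched in both replicates it was 37.3%, and in the reproducible set it was 16 of 34.

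**Figure D4:**
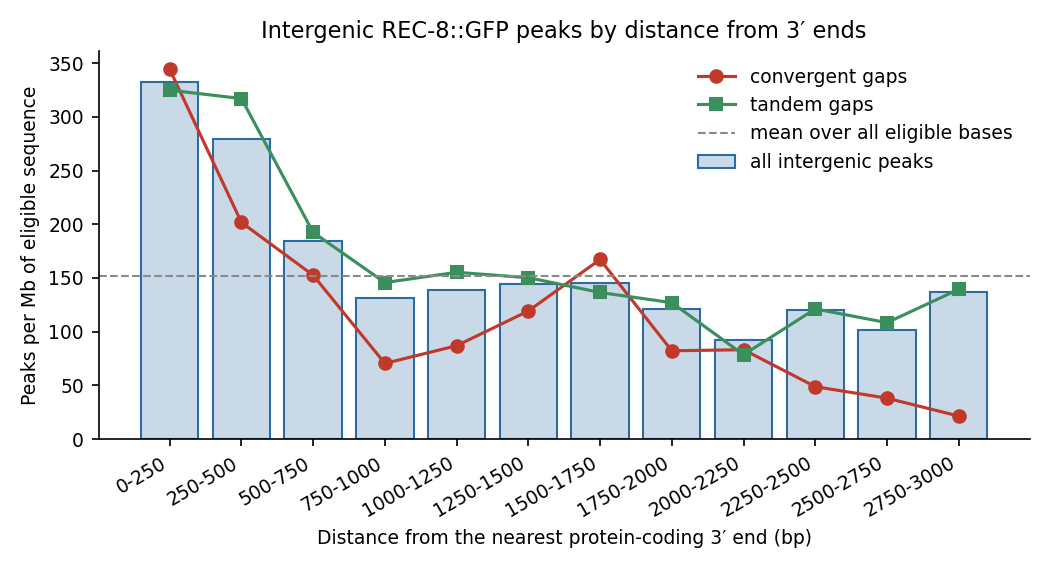
Intergenic peaks per Mb of eligible sequence (vertical axis) by distance from the nearest protein-coding 3′ end in steps of 250 bp (bars), with convergent gaps (circles) and tandem gaps (squares) drawn apart and the mean of 151.4 per Mb as a dashed line. The bars stand at 332.5 and 279.7 in the first 500 bp and at 131.2 from 750 to 1000 bp.

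Short gaps held more peaks per eligible base than long ones, and their bases are also nearer to 3′ ends. In gaps up to 1000 bp the density was 362.0 per Mb, with a median signal of 33.4. It was 245.7 in gaps of 1000 to 2000 bp, 166.1 from 2000 to 5000 bp, 139.0 from 5000 to 10000 bp and 96.6 over 20000 bp. Within gaps of like length the share near a 3′ end still exceeded that of the eligible bases, except in the longest. It was 59.7% of peaks against 49.7% of bases in gaps of 1000 to 2000 bp, 25.7% against 15.2% from 2000 to 5000 bp, 13.7% against 5.60% from 5000 to 10000 bp and 6.07% against 2.64% from 10000 to 20000 bp. Over 20000 bp, 1 of 140 peaks lay near a 3′ end, 0.714% against 1.304% of bases. In gaps up to 1000 bp nearly every eligible base is that near to an end, so no such comparison exists there.

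Convergent gaps, and tandem gaps too, held slightly more peaks than their share of the sequence. Whether the convergent excess passed its interval depended on which peaks were counted. Of the 2511 peaks, 387 (15.4%, interval 14.02 to 16.9) lay between convergent genes, against 14.4% of eligible bases, a ratio of 1.07 (interval 0.977 to 1.18). Tandem gaps held 1450 peaks (57.7%, 55.8 to 59.7) on 54.6% of the bases, and divergent gaps 674 (26.8%, 25.1 to 28.6) on 30.9%. Per Mb of eligible bases this was 162.6 in convergent, 160.1 in tandem and 131.4 in divergent gaps. In mostly unique sequence convergent gaps held 15.0% of peaks on 12.6% of bases, a ratio of 1.19 (1.08 to 1.304). The ratio was 1.24 (1.09 to 1.399) in the 50% of the list with the higher signal and 1.31 (1.08 to 1.57) for the peaks matched in both replicates, with intervals above 1. These ratios do not take the distance to 3′ ends into account. Of the eligible bases of convergent gaps, 35.9% lay within 500 bp of a 3′ end, against 13.96% of all eligible bases.

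The peaks in convergent gaps clustered at the ends of the genes. Of the 387, 248 (64.1%) lay within 500 bp of a 3′ end, against 35.9% of the eligible bases of these gaps. In tandem gaps the shares were 32.3% of peaks and 16.1% of bases. In the first 250 bp the density was 344.3 per Mb in convergent and 324.8 in tandem gaps, and from 250 to 500 bp it was 201.7 and 317.0. It was 152.5 and 192.4 from 500 to 750 bp, 70.4 and 145.7 from 750 to 1000 bp, and 68.8 and 116.3 beyond 3000 bp. At like distance, convergent gaps were denser than tandem ones only in the first 250 bp, from 1500 to 1750 bp and from 2000 to 2250 bp. Peaks in convergent gaps had a median signal of 31.4, against 30.2 in tandem and 29.5 in divergent gaps, and 24.8%, 19.9% and 18.7% of them were matched in both replicates, with overlapping intervals (20.6 to 29.4, 17.8 to 22.0 and 15.8 to 21.8). The share between convergent genes was 11.5% in the lowest class by signal and 18.5% in the highest, and that between divergent genes 28.8% and 22.1%.

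Among lists of genes, those of the germ line and of ribosomal proteins had the largest shares of members with a peak past the 3′ end. Of all 12248 protein-coding genes on chromosomes I to IV, 8.43% had an intergenic summit within 1000 bp past their 3′ end. Of 43 germ line and P granule genes 11 did (25.6%, interval 13.5 to 41.2), and of 69 ribosomal protein genes 14 did (20.3%, 11.6 to 31.7). Of the genes of these lists with an eligible base past their end, 47.8% of 23 germ line genes and 50% of 28 ribosomal protein genes had a summit, against 14.8% of 6987 among all genes. The germ line genes were cgh-1, car-1 and glh-1 of the RNA granules, pgl-1, the RNA-binding fbf-2 and daz-1, lin-41, tra-1, the yolk receptor gene rme-2, and cbd-1 and cpg-1 of the eggshell. Past car-1 the summit lay at 439 bp, with 72.7 pooled and 32.9 and 32.6 in replicates 1 and 2, and past glh-1, a Vasa-like helicase, it lay at 223 bp, with 63.8 pooled and a match in replicate 2 alone, at 46.0. The car-1 summit also lay inside or within 100 bp of the pseudogene fbxa-121, and the cgh-1 summit of the non-coding RNA gene C07H6.17.

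Among the ribosomal protein genes, the summit past rpl-7A lay at 104 bp in a convergent gap with tald-1, with 64.6 pooled and 20.4 and 45.003 in replicates 1 and 2. The summit past rpl-31 lay at 357 bp, with 58.6 pooled and 32.9 and 28.3 in the replicates. It also lay inside or within 100 bp of the long intergenic non-coding RNA gene linc-1. Of 38 genes of cohesin and meiosis 5 had a summit (13.2%, interval 4.41 to 28.1), namely the synaptonemal complex gene syp-6, the polo kinase gene plk-2, the axis gene htp-1, the cohesin release factor wapl-1 and the cohesin subunit smc-3. The summit past syp-6, at 63 bp, had 45.4 pooled and was matched in replicate 2 alone, and that past plk-2 had 41.0 and was matched in replicate 1 alone. Of 41 core histone genes 6 had one (14.6%, 5.57 to 29.2), and of those with an eligible base past their end the share was 18.2% of 33 histone genes and 29.4% of 17 cohesin and meiosis genes, against 14.8% of all such genes. The genes his-9 and his-25 shared 1 peak of 33.9 in their convergent gap.

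The shares of the other families were near or below that of all genes. Of 151 C-type lectin genes 14 had a summit (9.27%), of 218 F-box genes 12 (5.50%), of 387 chemoreceptor genes 18 (4.65%), of 87 neuropeptide genes 5 (5.75%), of 40 heat shock and chaperone genes 2 (5.00%) and of 98 cuticle collagen genes 3 (3.06%). Of 31 genes for the major sperm protein, made during spermatogenesis, 2 had one (6.45%). Among genes with an eligible base past their end, every one of these families was below the 14.8% of all such genes. The shares ran from 5.56% of 54 collagen genes to 12.3% of 114 C-type lectin genes. The highest of these peaks were past ins-37, an insulin-like gene, with 65.0 pooled and 29.0 and 38.3 in replicates 1 and 2, and past clec-101, with 62.6 pooled and 29.6 and 33.8 in the replicates. The ins-37 summit also lay inside or within 100 bp of the non-coding RNA gene F08G2.13, and the clec-101 summit of the pseudogene col-66. The summit past hsp-60, the mitochondrial chaperonin, had 50.2 pooled and was matched in replicate 2 alone, at 46.2. No test was run on these lists, and how strongly each gene was expressed in these animals was not measured.

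Intergenic summits were slightly richer in G and C than the sequence around them. The 200 bp at the summits held 36.8% GC on average (SE 0.172), against 35.6% in windows 1000 bp to either side and 34.2% in all eligible windows. The difference to the flanks was 1.26 percentage points (SE 0.189 over peaks). The flanking windows were not held to the rule of position, so they include sequence inside genes. GC content was 35.1% in the lowest class by signal and 39.0% in the highest, and 42.6% (SE 1.04) in the 34 peaks of the reproducible set. The density of peaks was 133.6 per Mb in windows under 30% GC, 142.4 from 30 to 35%, 155.3 from 35 to 40%, 195.4 from 40 to 45% and 489.8 from 45% upwards. In every one of these bands the density within 500 bp of a 3′ end was above that farther away, by 2.09, 2.77, 2.84, 2.34 and 1.57 times. The part of GC content in the signal was not tested.

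Peaks were called mostly in sequence that occurs once. On average 95.6% of the 31-letter words at the summits were unique in the genome, against 84.97% in eligible windows, and under 50% were unique at 72 summits (2.87%), against 14.5% of eligible windows. The treatment of reads from repeated sequence is not stated in the sources used here. In the reproducible set 4 of 34 summits (11.8%) fell under 50%, the pair at eel-1 among them. The average share of unique words in that set was 83.4%, lower than in the 2511 peaks and near that of eligible windows. Across the 2511 peaks signal had a Spearman rho of 0.171 with GC content and of -0.0026 with the share of unique words.

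Short words differed modestly between the summits and other eligible windows of 200 bp, counted on both strands. GAGAGA stood in 17.3% of the summit windows (interval 15.8 to 18.8), against 10.9% of the 82992 eligible windows, and CCGCCC in 6.57% (5.63 to 7.61) against 3.56%. CACACA stood in 11.4% against 9.06%, TTAGGC, the unit of the worm telomere repeat, in 6.73% against 5.56%, and AATAAA, the polyadenylation signal, in 44.3% against 41.1%. A run of 8 T was found in 24.0% against 25.7%. Within 500 bp of a 3′ end AATAAA stood in 48.3% of summit windows and 48.8% of eligible ones, so there it was about as frequent as in the sequence at large.

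Words of RNA polymerase III promoters stood in a small share of these windows, and GGTTCGA was above its share of the eligible windows. GGTTCGA, the core of the B box, stood in 57 summit windows (2.27%, interval 1.72 to 2.93), against 1.47% of eligible windows. In the windows 1000 bp to the left and right it stood in 1.83% and 1.71%, the first inside that interval and the second at its edge. The difference to the nearby sequence is thus not clear. GGTTCGA stood in 4 of the 34 of the reproducible set (11.8%). The looser GTTCNANNC, whose matches can overlap those of GGTTCGA, stood in 6.85% (5.89 to 7.91) against 6.59%, and in 6 of the 34 (17.6%). That word was added after sequences of this set had been read. The words AAAAGGGG and GTGGGAAG were read from the repeats shown above, so their counts include the peaks they were taken from. AAAAGGGG stood in 1.83% (1.34 to 2.44) against 1.03%. GTGGGAAG stood in 0.876% (0.550 to 1.32) against 0.552%, which lies inside the interval.

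Other annotated genes lay within 100 bp of 449 summits (17.9%, interval 16.4 to 19.4), against 19.6% of eligible bases. Non-coding RNA genes of the class annotated only as ncRNA stood out among them, with 131 summits (5.22%, 4.38 to 6.16) against 2.51% of bases. They took in 7 of the 34 peaks of the reproducible set, those at K10H10.11, C07H6.17, Y69A2AR.37, Y46E12A.11 and D2024.14 and the pair at srpr-2.1, and 31.3% of their summits were matched in both replicates. Pseudogenes had 7.45% of summits (6.45 to 8.54) against 9.74% of bases, and piRNA genes 4.26% (3.51 to 5.13) against 6.90%. For long intergenic non-coding RNA genes it was 1.27% (0.873 to 1.79) against 0.896%. RefSeq placed 0 further small RNA genes within 500 bp of these summits. Its genes share WormBase identifiers with nearly all of those used for the rule, so this is no independent check.

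The chromosomes differed in density, and the share of peaks in their central part was close to that of the eligible bases. The density was 169.1 per Mb of eligible bases on chromosome I, 136.8 on II, 189.5 on III and 130.2 on IV. All pooled peaks followed the same order, with 219.0 per Mb of chromosome on I, 199.5 on II, 235.6 on III and 186.2 on IV. The central 33.3% of the chromosomes held 31.9% of the peaks (interval 30.1 to 33.8) and 30.9% of the eligible bases, a ratio of 1.03 (0.973 to 1.09). The interval lay above 1 with 250 bp as the limit to starts, where the ratio was 1.08 (1.03 to 1.14), and in the 50% of the list with the higher signal, where it was 1.1001 (1.01 to 1.19). On the lists of the single replicates it was 1.06 (1.01 to 1.12) for replicate 2 and 1.08 (1.03 to 1.14) for replicate 1. Under other choices the interval included 1. The ratio was 1.005 (0.947 to 1.06) in mostly unique sequence and 1.01 (0.948 to 1.07) outside every gene class. With 1000 bp as the limit to starts it was 1.03 (0.964 to 1.10). With each chromosome cut into 10 equal parts, the densest was the fourth of chromosome III, at 280.0 per Mb, and the sparsest the last of chromosome IV, at 88.7 per Mb, with 115.4 in the one before it. Those 2 parts of chromosome IV also held 74 of the 107 summits within 100 bp of a piRNA gene, where a large cluster of piRNA genes lies. The share of the eligible bases near piRNA genes in those parts is not given here, so the count shows neither an excess nor a shortfall. On each chromosome the share of peaks near a 3′ end exceeded that of the bases, with 27.9% against 15.5% on I, 31.8% against 15.7% on II, 30.1% against 13.5% on III and 25.2% against 12.1% on IV.

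**Figure D5:**
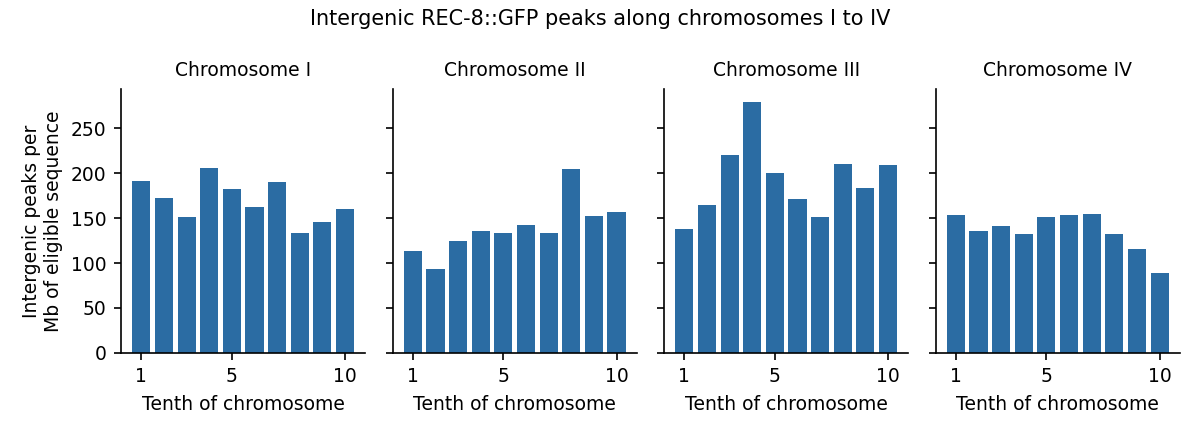
Intergenic peaks per Mb of eligible sequence in each of 10 equal parts of chromosomes I to IV, from the left end to the right end. The fourth part of chromosome III reaches 280.0 and the last part of chromosome IV stands at 88.7, and the profiles of the 4 chromosomes differ in shape.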

How the data were processed

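REC-8::GFP ChIP-seq of whole young adult worms was analysed from the peak lists of 2 biological replicates and of their pooled reads, on ce11. Per the file headers, the relaxed lists, 1 a replicate and 1 for the pool, hold peaks with background for the irreproducible discovery rate, which gave the reproducible set. The deposited signal of a peak is the value the authors' peak caller gave it, and it was used only to rank and describe peaks within a list. The deposited q-values are on a −log10 scale and were not used in a result. No source used here states the aligner, the peak caller, its thresholds or the use of the control. Depth is unknown, because no read counts are in the files. Peak positions are as the authors gave them, and summits were computed from the deposited offsets.

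Genes came from Ensembl release 115 (WBcel235, the same assembly as ce11), with names from RefSeq by WormBase identifier for 46881 of 46926 genes. Of the peaks, 0 ended past a chromosome end. The members, gene lists, motifs and measures were chosen with earlier results of these data known, so they are descriptions. Shares of peaks were set beside the shares of eligible bases, or of the 82992 eligible windows of 200 bp laid end to end. A gap lies between neighbouring protein-coding genes, and its orientation is convergent, tandem or divergent. Summits of different lists match when they lie within 100 bp. Named genes flank the 20 peaks of highest signal or the intergenic peaks of the reproducible set, or belong to a list with up to 3 of its highest peaks. Named genes of other classes lie at or within 100 bp of the summit of such a peak. Chemoreceptors are the sr families, without srf, srp and srlf symbols. With 1 group and no control there was no test between conditions, and no p-values were computed. The sequence of 1 further summit window is not reported here. Python 3.11.15, numpy 2.4.6, pandas 2.3.3, scipy 1.17.1 and matplotlib 3.10.9 were used, and the scripts were tested on simulated peaks at known positions.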

Additional observations from a re-analysis of the deposited data

How the results depend on the processing

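Of 121 values recomputed under other choices, 89 stayed within the interval of the reported value (for a count, within 1.5 times) and 32 did not, and no ratio of shares crossed 1 among those that moved. The share near 3′ ends exceeded that of the bases under every choice run, with ratios of 1.79 in convergent gaps alone, 1.65 within 1000 bp of the end, 2.196 within 250 bp of the end, 2.197 with 1000 bp as the limit to starts, 2.51 in the 50% of the list with the higher signal and 1.85 to 1.89 on the lists of single replicates. Ends of all transcripts gave the same value, since outside a gene its outermost end is the nearest one. Among choices added later, with the data seen, it was 1.91 in mostly unique sequence and 2.67 for peaks matched in both replicates. The ratio for convergent gaps, with an interval of 0.977 to 1.18 as reported, had intervals above 1 in the more intense 50% (1.24, 1.09 to 1.399), in mostly unique sequence (1.19, 1.08 to 1.304), for peaks matched in both replicates (1.31, 1.08 to 1.57), with neighbours of any gene class except piRNA (1.13, 1.04 to 1.22), outside every gene class (1.12, 1.01 to 1.23) and on the list of replicate 1 (1.12, 1.03 to 1.22). It was 1.06 (0.971 to 1.15) on the list of replicate 2, 1.01 (0.922 to 1.11) with 250 bp to starts and 1.075 (0.971 to 1.19) with 1000 bp. None of these ratios for convergent gaps takes the distance to 3′ ends into account. The share matched in both replicates was 12.2% within 50 bp, 29.4% within 200 bp, 38.6% by overlap of peaks and 38.7% in the more intense 50%, and in single replicates 48.2% to 53.8%. The share in the reproducible set was 1.98% with 250 bp to starts, 0.994% with 1000 bp to starts and 2.94% in the more intense 50%. The difference in GC content was 2.18 points in the more intense 50%, 0.835 outside every gene class and 2.73 for peaks matched in both, on average over peaks. The more intense 50% held 1155 peaks, with 1.10 as the ratio for the chromosome centre and AATAAA in 42.3%, CACACA in 12.7% and GAGAGA in 19.3% of windows. On the lists of single replicates AATAAA stood in 41.7% to 42.6% and CCGCCC in 5.56% to 5.90%. With 250 bp to starts the median signal was 0.984 of that of the list, and with 21-letter words 91.5% were unique. The cause of these shifts was not tested. No paired analysis was possible because the 2 replicates form 1 group. Groups of 2 are too small for a search for outlying samples, and the pooled list shares its reads with both replicates.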
